A study of Mus musculus with 15 samples.

Results

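The genes described here carry long-chain fatty acids from the blood into the mitochondria of the heart and oxidise them there. They were chosen by name, by their place in the pathway and with earlier results of these data known: 31 genes of 12391 named genes in the deposited tables. All 31 were found and all 31 passed the filter on low values, at least 0.5 FPKM in at least 5 libraries, which left 12267 genes to test. Cpt1a passed only through 5 libraries of angiotensin II hearts. RNA came from whole hearts of male C57BL/6 mice, 15 libraries in all, with 5 mice in each of 3 groups. Control mice carry no named treatment, AngII mice received an infusion of angiotensin II, the pressor hormone of the renin-angiotensin system, and AngII+QDG mice had AngII together with QDG, named in the labels only by that abbreviation. Dose, duration, age and what QDG contains are not given in these sources, and the comparisons ask what AngII did and what QDG did on top of it.

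Fatty acids are the main fuel of the adult heart. Cd36 and Slc27a1 help them cross the cell membrane, Fabp3 binds them in the cytoplasm, and Acsl1 links them to coenzyme A. Carnitine palmitoyltransferase 1, the step inhibited by malonyl-CoA, then moves the acyl group onto carnitine, the carrier Slc25a20 takes it across the inner mitochondrial membrane, and Cpt2 moves it back to coenzyme A. Each round of beta oxidation consists of a dehydrogenation, a hydration, another dehydrogenation and a thiolysis, and electrons from the first leave through the flavoprotein Etfa/Etfb and its dehydrogenase Etfdh. The nuclear receptor Ppara, with its coactivator Ppargc1a, switches on many of these genes, and Pdk4, a kinase that inactivates pyruvate dehydrogenase, is a classical target that spares glucose when fat is burned.

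Against Control, AngII hearts had higher Pdk4 and Acadl and lower Ech1 transcript levels, and AngII+QDG hearts had higher Pdk4, Acadl, Acadm, Hadh and Etfdh. Called means an adjusted p under 0.05 in limma, a linear model fitted to log2(FPKM + 1) of all genes and all 15 libraries with Benjamini-Hochberg adjustment over all genes. By this rule 2 of 31 members rose and 1 fell in AngII against Control, where 11.9% of all genes tested were called higher and 1.48% lower. In AngII+QDG against Control 5 of 31 rose and 0 fell, beside 16.0% of all genes higher and 3.31% lower. In AngII+QDG against AngII 0 of 31 were called, beside 0.0% of all genes; limma gave an unadjusted p under 0.05 for 0 members and for 578 of 12267 genes. The shares of members called were thus near or below those of all genes. Which members were called, and how many in each direction, depended on the scaling, while no single call reversed. With each library centred on its median, 1 member was higher and 2 were lower in AngII against Control, and 1 was higher and 6 were lower in AngII+QDG against Control.

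The median log2 difference of the 31 members was 0.27 for AngII against Control and 0.24 for AngII+QDG against Control, beside 0.20 and 0.18 for all genes tested. It was -0.02 for AngII+QDG against AngII, the same as for all genes. Values were above 0 for 24, 25 and 13 of 31 members in these 3 comparisons, beside 72.1%, 67.5% and 46.3% of all genes. The groups of no member stood apart without overlap in any comparison, 0 of 31 each time, while the groups did not overlap for 11.1% of all genes in AngII against Control, 14.5% in AngII+QDG against Control and 1.39% in AngII+QDG against AngII. Both comparisons with Control share the 5 Control libraries.

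**Figure D1:**
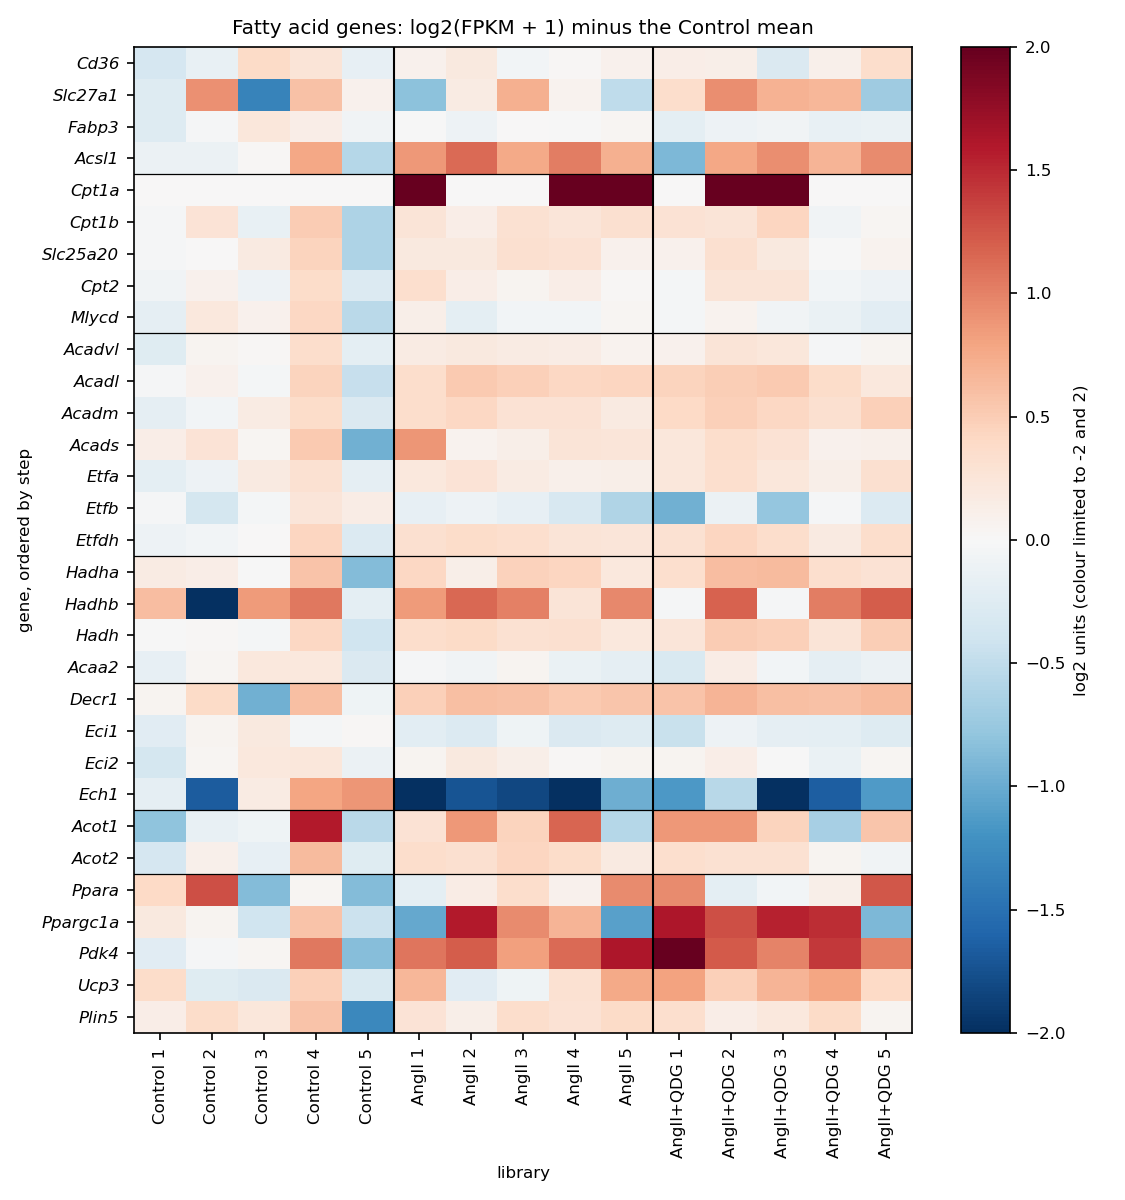
Heat map of the 31 members (rows, ordered by step from uptake to regulators) in the 15 libraries (columns): log2(FPKM + 1) minus the mean of the 5 Control libraries, with colour limited to -2 and 2. Control 4 is the highest Control library for 24 members and Control 5 the lowest for 16, Ech1 is low in most AngII and AngII+QDG libraries, and Cpt1a is either at its Control value of 0 or far above it.

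**Figure D2:**
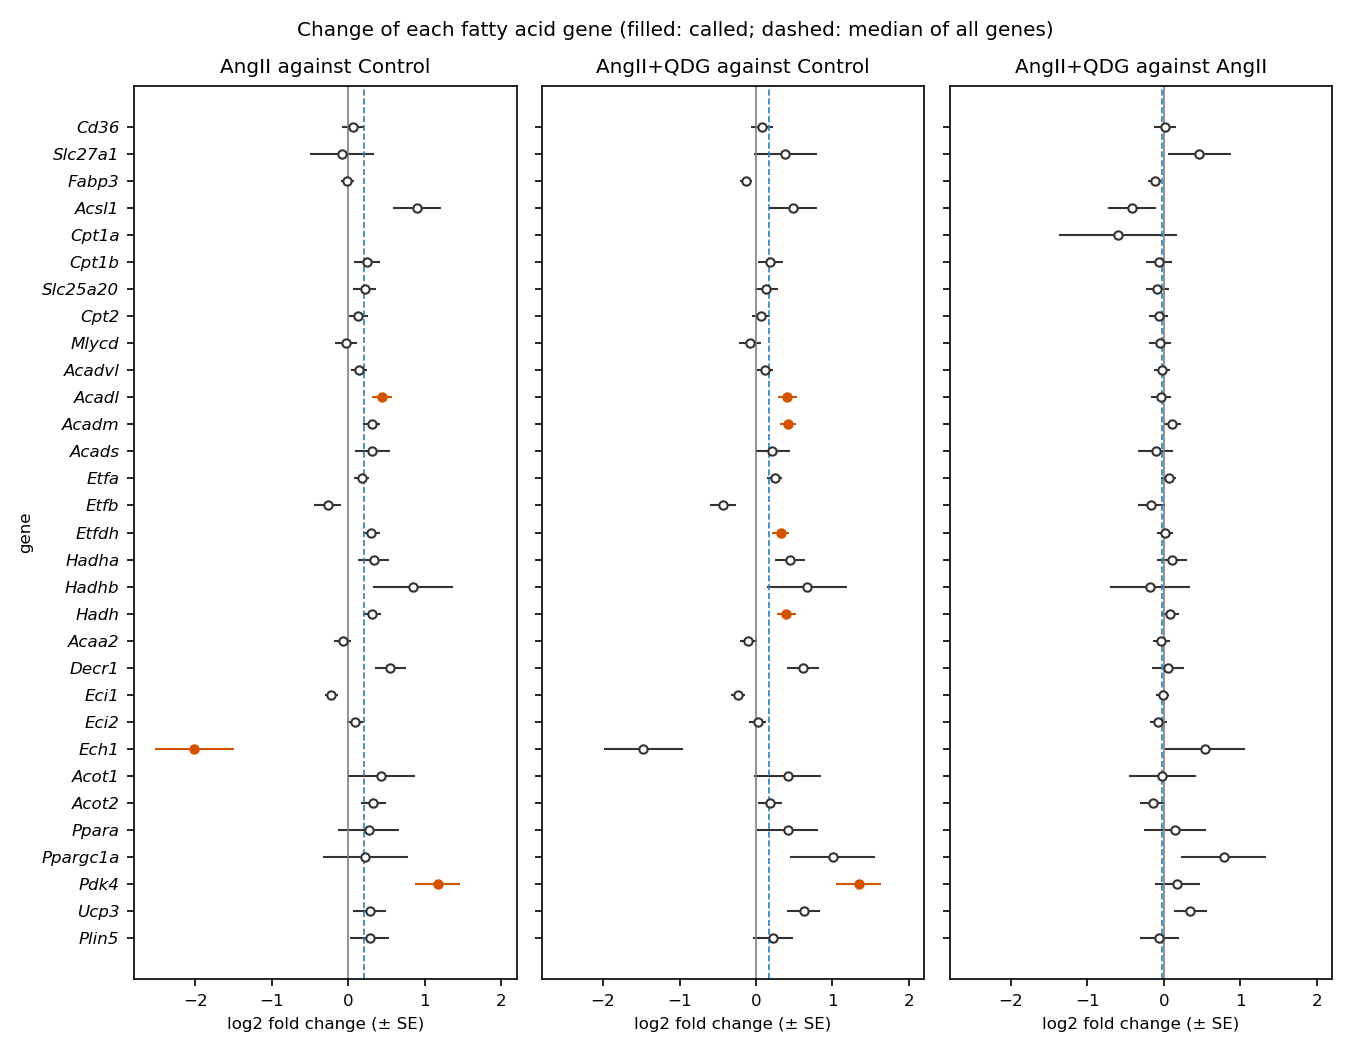
Log2 fold change (points) with its standard error (bars) of each member in the 3 comparisons; filled points are called (limma, adjusted p under 0.05), and the dashed line is the median of all genes tested. Cpt1a is not drawn against Control, where it is listed at 0, and no point is filled in AngII+QDG against AngII.

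Several measures of the libraries move with the groups and bear on every comparison with Control. Depth, read from the step size of the FPKM values, was 51.6 to 78.3 in units of 1000000 fragments, if 1 step is 1 fragment. The balance of short against long transcripts was the mean log2 level of coding transcripts under 1000 nucleotides minus that for at least 3000 nucleotides. This balance stood at 1.64 ± 0.256 for Control, 1.17 ± 0.0835 for AngII and 1.13 ± 0.123 for AngII+QDG libraries (SD, n = 5), and its Control and AngII ranges did not overlap. Among members, Spearman's rho across genes between transcript length and log2 difference was 0.50 for AngII and 0.69 for AngII+QDG against Control. It covers n = 30 genes that share the same libraries, and the same value over all genes was not computed. Members under 2000 nucleotides had median differences of 0.13 and 0.08, longer ones 0.29 and 0.41. AngII+QDG tables list a partly different set of transcripts from the other tables, so the file set and QDG cannot be told apart. The share of transcripts listed at 0 was 12.1 ± 5.19% over Control, with a highest value of 20.6%, 5.94 ± 0.955% over AngII and 5.53 ± 0.768% over AngII+QDG libraries (SD, n = 5). The part of these measures in the results for single members was not tested beyond the fits given at the end. The stretch-responsive gene Ankrd1, a check that AngII acted, rose in AngII by 1.20 ± 0.22 on the log2 scale (SE; limma adjusted p = 0.0112), while Nppa, the atrial natriuretic peptide, differed by 0.69 ± 0.31 (adjusted p = 0.143).

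Single markers of cell types were called too, and in whole hearts fewer cells of a type and less RNA per cell cannot be told apart. Of all genes 11.9% were called higher and 1.48% lower in AngII against Control, and 16.0% and 3.31% in AngII+QDG against Control. Lists this small were not tested against those shares. Of the cardiomyocyte markers 12 of 12 were present, and their summed level spanned 38904 to 59903 FPKM over Control, 40154 to 47142 over AngII and 34773 to 53201 over AngII+QDG libraries. The calcium release channel Ryr2 was the 1 of 12 called in AngII against Control (1.00 ± 0.24 on the log2 scale, SE, limma adjusted p = 0.0222). Differences lay below 0 for 6 of 12 cardiomyocyte markers in AngII and for 7 of 12 in AngII+QDG against Control. Fibroblast markers lay above 0 for 10 of 10 in AngII and 9 of 10 in AngII+QDG against Control. Of all genes 72.1% and 67.5% lay above 0 there. Of 10 fibroblast markers 1 was called higher in AngII against Control, the matrix protein Postn (1.42 ± 0.39, limma adjusted p = 0.032). In AngII+QDG against Control 2 of 10 were called higher, Pdgfra and Lum (0.72 ± 0.16 and 0.68 ± 0.18, limma adjusted p = 0.00891 and 0.0176). The pericyte marker Rgs5 was the 1 of 7 mural cell markers called in AngII (0.60 ± 0.18; limma adjusted p = 0.0408). Of 10 endothelial markers 0 were called in AngII, and in AngII+QDG against Control 2 rose, Tek and Kdr, and 2 fell, Vwf (by 0.92) and Cldn5, the latter named after its values were seen. Of 9 macrophage markers Mrc1 alone was called, higher in AngII+QDG against Control (0.90 ± 0.27, limma adjusted p = 0.0309), while 7 of 9 lay below 0 there. Red blood cell markers lay below 0 for 5 of 5 in both comparisons with Control, and Hba-a2, the 1 of 5 called, fell by 2.78 in AngII+QDG (SE 0.80, limma adjusted p = 0.0268). Of 8 markers of fat cells, which also burn and store fat, Cfd alone was among the summed genes, at 2.86 ± 3.55, 0.514 ± 0.125 and 2.26 ± 1.21 FPKM (SD, n = 5). The part of other cells in the members' levels was not tested.

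Control libraries were also less alike. Over the 29 members listed above 0 in every library, the median coefficient of variation came to 25.5% for Control, 6.53% for AngII and 11.7% for AngII+QDG. Control had the largest spread for 24 of these 29. Over 9643 genes of at least 1 FPKM on average and above 0 in every library, the medians were 28.0%, 17.5% and 17.5%, and Control had the largest spread for 64.4%. Control 4 was the highest of the Control libraries for 24 of 31 members (40.4% of all genes) and Control 5 the lowest for 16 (53.4% of all genes). The part of this spread in the contrasts below was not tested beyond leaving libraries out.

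Uptake and activation showed the most abundant member and no called change, 0 of 4 in each comparison. Fabp3, the fatty acid binding protein of heart muscle, stood at 4841 ± 623 FPKM for Control, 4770 ± 176 for AngII and 4393 ± 142 for AngII+QDG libraries (SD, n = 5). Its log2 difference was -0.01 ± 0.08 for AngII and -0.13 ± 0.08 for AngII+QDG against Control (SE). Cd36, the fatty acid translocase (chromosome 5, 17781690 to 17888801 on GRCm38, minus strand), had 203, 231, 336, 306 and 229 FPKM in Control 1 to 5. AngII libraries held 271, 294, 246, 261 and 271 FPKM of Cd36, and AngII+QDG libraries 281, 277, 208, 275 and 326. All 3 groups overlapped widely, with Cd36 differences of 0.07 ± 0.14 for AngII against Control, 0.01 ± 0.14 for AngII+QDG against AngII and 0.08 ± 0.14 for AngII+QDG against Control (SE; limma adjusted p = 0.779, 0.998 and 0.729).

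Acsl1, the main long-chain acyl-CoA synthetase of the heart, had 91.4, 91.3, 100.01, 169 and 66.2 FPKM in Control 1 to 5. In AngII it had 180, 218, 168, 201 and 162 FPKM, and in AngII+QDG 52.3, 169, 189, 158 and 191. Control 4 lay within the AngII range and AngII+QDG 1 below all other libraries. The Acsl1 difference of 0.90 ± 0.32 for AngII against Control (SE) did not pass (limma adjusted p = 0.0708), nor did that of 0.48 ± 0.32 for AngII+QDG against Control (adjusted p = 0.3). Slc27a1, the transport protein FATP1, varied within groups, from 5.10 to 27.8 FPKM among Control, 7.70 to 24.0 among AngII and 8.36 to 28.2 among AngII+QDG libraries.

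In the carnitine shuttle 0 of 5 members were called in each comparison. Cpt1b, the muscle form of carnitine palmitoyltransferase 1, had 144, 177, 133, 209 and 94.8 FPKM in Control 1 to 5. AngII libraries held 175, 160, 181, 173 and 182 FPKM of Cpt1b, and AngII+QDG libraries 179, 175, 198, 139 and 151. The AngII libraries lay inside the Control range, and the Cpt1b difference was 0.25 ± 0.17 for AngII and 0.19 ± 0.17 for AngII+QDG against Control (SE; limma adjusted p = 0.323 and 0.461). Slc25a20, Cpt2 and Mlycd, which breaks down malonyl-CoA, had log2 differences of 0.22, 0.13 and -0.03 for AngII and 0.13, 0.07 and -0.08 for AngII+QDG against Control.

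Cpt1a, the form that dominates in liver and is less sensitive to malonyl-CoA, was listed at 0 in all 5 Control libraries. AngII 1, 4 and 5 had 7.06, 5.96 and 7.78 FPKM of Cpt1a and AngII 2 and 3 were listed at 0. AngII+QDG 2 and 3 had 7.93 and 5.91 FPKM and AngII+QDG 1, 4 and 5 were listed at 0. The non-zero Cpt1a values stood for 1575 to 2631 steps of the FPKM scale, with nothing between these and 0. Ppara was likewise listed at 0 in Control 3 and 5, and a 0 here is what the table lists, so no fold is given. Where it was listed above 0, Cpt1a made up 2.89 to 4.34% of the Cpt1a and Cpt1b total. With each 0 taken as listed, an exact two-sided permutation test of this share gave p = 0.167 for AngII and 0.444 for AngII+QDG against Control (adjusted over the 3 comparisons 0.5 and 0.603, n = 5). With Control at 0 throughout, this p depends only on how many treated libraries are above 0. The test could thus not have passed here, although fully separated groups could reach 0.00794, and no conclusion is drawn from it. AngII+QDG against AngII gave p = 0.603 (exact permutation).

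Within the first dehydrogenation and its electron acceptors, 1 of 7 members rose in AngII and 3 of 7 in AngII+QDG against Control. Of all genes 11.9% and 16.0% were called higher there, and steps this small were not tested against those shares. Acadl, the long-chain acyl-CoA dehydrogenase (chromosome 1, 66830839 to 66863277, minus strand), had 364, 393, 360, 504 and 269 FPKM in Control 1 to 5. AngII libraries held 475, 534, 518, 496 and 497 FPKM of Acadl, and AngII+QDG libraries 506, 522, 534, 477 and 431. Control 4 alone reached the AngII level. Acadl rose by 0.44 ± 0.13 in AngII (SE; 1.36-fold; limma adjusted p = 0.0376) and by 0.41 ± 0.13 in AngII+QDG against Control (1.33-fold; adjusted p = 0.0363).

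Acadm, the medium-chain acyl-CoA dehydrogenase (chromosome 3, 153922357 to 153944632, minus strand), had 320, 350, 410, 470 and 298 FPKM in Control 1 to 5. It had 466, 488, 445, 447 and 414 FPKM in AngII and 481, 507, 488, 457 and 507 in AngII+QDG, so Control 4 again lay among the treated libraries. Acadm rose in AngII+QDG against Control by 0.42 ± 0.11 (SE; 1.34-fold; limma adjusted p = 0.0166), and its AngII difference of 0.31 ± 0.11 did not pass (adjusted p = 0.0722). Acadvl and Acads, the very-long-chain and short-chain enzymes, differed by 0.15 ± 0.10 and 0.32 ± 0.23 for AngII and by 0.12 ± 0.10 and 0.21 ± 0.23 for AngII+QDG against Control, and neither was called. The 4 dehydrogenases thus differed in call while their log2 values for AngII lay between 0.15 and 0.44; differences between them were not tested.

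Etfdh, which passes the electrons on to ubiquinone (chromosome 3, 79603788 to 79629500, minus strand), had 170, 177, 184, 247 and 152 FPKM in Control 1 to 5. AngII libraries held 230, 235, 231, 219 and 216 FPKM, and AngII+QDG libraries 226, 248, 233, 207 and 235. Its rise in AngII+QDG against Control was 0.32 ± 0.11 (SE; 1.25-fold) at a limma adjusted p of 0.0497, just under the threshold, and Etfdh gave 0.30 ± 0.11 for AngII (adjusted p = 0.0746). The flavoprotein subunits Etfa and Etfb, which form a heterodimer, were not called, with 0.24 ± 0.10 and -0.43 ± 0.18 for AngII+QDG against Control (adjusted p = 0.0973 and 0.0985). The ratio of Etfb to Etfa FPKM was 2.16 ± 0.378 for Control, 1.57 ± 0.162 for AngII and 1.38 ± 0.396 for AngII+QDG libraries (SD, n = 5); the Etfb main transcript is 893 nucleotides long and that of Etfa 1392, and the part of the length balance in this ratio was not tested.

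Of the enzymes from hydration to thiolysis, 0 of 4 were called in AngII and 1 of 4 in AngII+QDG against Control. In the latter comparison 16.0% of all genes were called higher. Hadh, the short-chain hydroxyacyl-CoA dehydrogenase (chromosome 3, 131233419 to 131272101, minus strand), had 235, 239, 230, 316 and 179 FPKM in Control 1 to 5. It had 301, 308, 293, 294 and 273 FPKM in AngII and 279, 336, 330, 284 and 333 in AngII+QDG. Control 4 overlapped the treated groups. Hadh rose in AngII+QDG against Control by 0.40 ± 0.12 (SE; 1.32-fold; limma adjusted p = 0.0323), beside 0.31 ± 0.12 for AngII (adjusted p = 0.0924).

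Hadha and Hadhb encode the alpha and beta subunits of the mitochondrial trifunctional protein, and their genes start 86 bases apart on opposite strands of chromosome 5. Hadha was steady within AngII, with 382, 310, 395, 387 and 333 FPKM, while Hadhb had 452, 554, 502, 299 and 485. Hadhb fell out in single libraries: Control 2 held 48.5 FPKM beside 218 to 518 in the other Control libraries, and AngII+QDG 1 and 3 held 245 and 244 beside 505 to 579. The ratio of Hadhb to Hadha FPKM ran from 0.156 to 1.58 among Control, 0.771 to 1.79 among AngII and 0.547 to 1.66 among AngII+QDG libraries. Hadhb had the largest difference of this step, 0.85 ± 0.52 for AngII against Control, which did not pass (limma adjusted p = 0.277), and Acaa2, the closing thiolase, gave -0.07 ± 0.11.

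Among the enzymes that prepare unsaturated chains, 1 of 4 fell in AngII against Control and 0 of 4 were called in AngII+QDG against Control. In AngII against Control 1.48% of all genes were called lower. Ech1, a dienoyl-CoA isomerase (chromosome 7, 28825217 to 28832247, plus strand), had 325, 115, 412, 635 and 679 FPKM in Control 1 to 5. AngII libraries held 48.2, 110, 103, 58.0 and 186 FPKM of Ech1, and AngII+QDG libraries 165, 250, 48.7, 116 and 168. Control 2 lay among the treated libraries and the other 4 Control libraries above them all. Ech1 fell by 2.01 on the log2 scale in AngII (SE 0.52; limma adjusted p = 0.0273), the largest called difference of any member, and by 1.47 in AngII+QDG against Control without passing (SE 0.52; adjusted p = 0.0595).

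The Ech1 level was shared out unevenly among its 6 transcripts. Its main coding transcript Ech1-201 had 195, 10.6, 305, 540 and 549 FPKM in Control 1 to 5, and in Control 2 most of the gene's level stood on retained-intron transcripts. With coding transcripts alone the Ech1 difference was -2.08 ± 0.94 and was no longer called (limma adjusted p = 0.148). Decr1, the dienoyl-CoA reductase, had 84.7, 107, 41.3, 124 and 77.0 FPKM in Control, against 114 to 124 in AngII and 121 to 130 in AngII+QDG, with differences of 0.55 ± 0.21 and 0.61 ± 0.21 against Control (adjusted p = 0.0883 and 0.052). Eci1 and Eci2, the enoyl-CoA isomerases, gave -0.22 ± 0.09 and 0.09 ± 0.11 for AngII against Control.

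**Figure D3:**
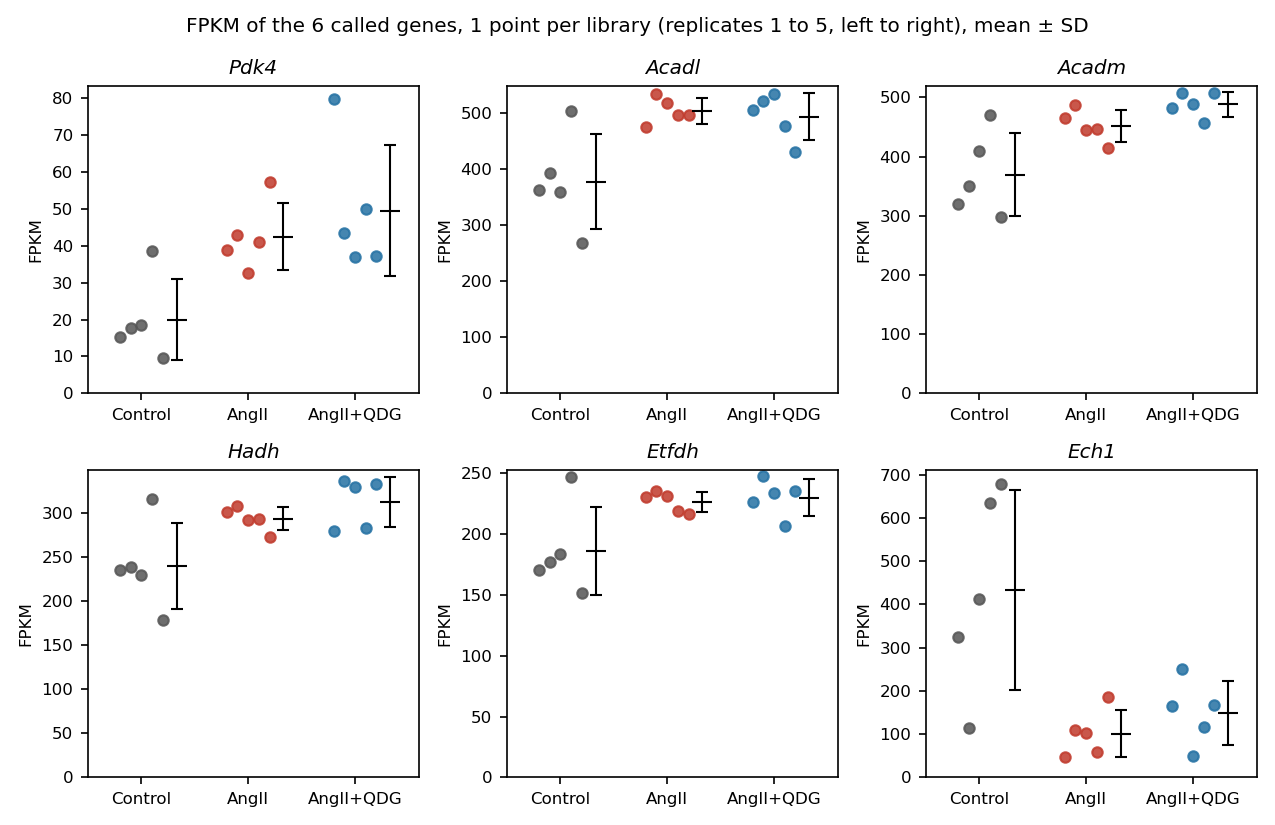
FPKM of the 6 called members in every library (points, replicates 1 to 5 from left to right) by group, with mean and SD beside them; each axis starts at 0. Control 4 lies near or inside the treated range for Pdk4, Acadl, Acadm, Hadh and Etfdh, and Control 2 does so for Ech1.

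Acot1 and Acot2, thioesterases that release free fatty acids from coenzyme A, were not called (0 of 2 in each comparison). Their transcripts are 94.3% identical over 1330 aligned bases, and 19.7% of the stretches of 75 bases of Acot1 occur in Acot2, so their split is uncertain. Acot2 had 25.2 ± 7.78, 30.9 ± 1.98 and 28.0 ± 3.48 FPKM in Control, AngII and AngII+QDG (SD, n = 5), and Acot1 had 4.85 ± 4.81, 6.01 ± 2.87 and 5.84 ± 2.35.

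Of the regulators and the lipid droplet protein, Pdk4 rose in both comparisons with Control, 1 of 5 members each time. Genes called higher made up 11.9% of all genes in AngII and 16.0% in AngII+QDG against Control. Pdk4 (chromosome 6, 5483351 to 5496309, minus strand) had 15.3, 17.7, 18.6, 38.6 and 9.57 FPKM in Control 1 to 5. AngII libraries held 38.8, 42.9, 32.5, 40.9 and 57.1 FPKM of Pdk4, and AngII+QDG libraries 79.7, 43.5, 36.9, 49.8 and 37.2. Control 1, 2, 3 and 5 lay below every treated library, and Control 4 lay among them. Pdk4 rose by 1.17 ± 0.29 in AngII (SE; 2.25-fold; limma adjusted p = 0.0262) and by 1.35 ± 0.29 in AngII+QDG against Control (2.54-fold; adjusted p = 0.00824), and AngII+QDG against AngII gave 0.18 ± 0.29 (adjusted p = 0.998).

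Ppara (chromosome 15, 85734983 to 85802819, plus strand) was low, with 1.40, 3.45, 0, 0.872 and 0 FPKM in Control 1 to 5. It had 0.590, 1.01, 1.32, 0.924 and 2.52 FPKM in AngII and 2.52, 0.586, 0.754, 0.977 and 3.32 in AngII+QDG, and no order of the groups could be seen. Ppargc1a split within groups: AngII 1 and 5 had 0.413 and 0.350 FPKM beside 3.56 to 7.55 in the others, and AngII+QDG 5 had 0.526 beside 6.01 to 7.79. Its differences were 0.22 ± 0.56 for AngII and 1.00 ± 0.56 for AngII+QDG against Control (SE; limma adjusted p = 0.814 and 0.221). Ucp3, an uncoupling protein of muscle, gave 0.63 ± 0.22 for AngII+QDG against Control (adjusted p = 0.0558), and Plin5, which coats lipid droplets near mitochondria, 0.22 ± 0.26.

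**Figure D4:**
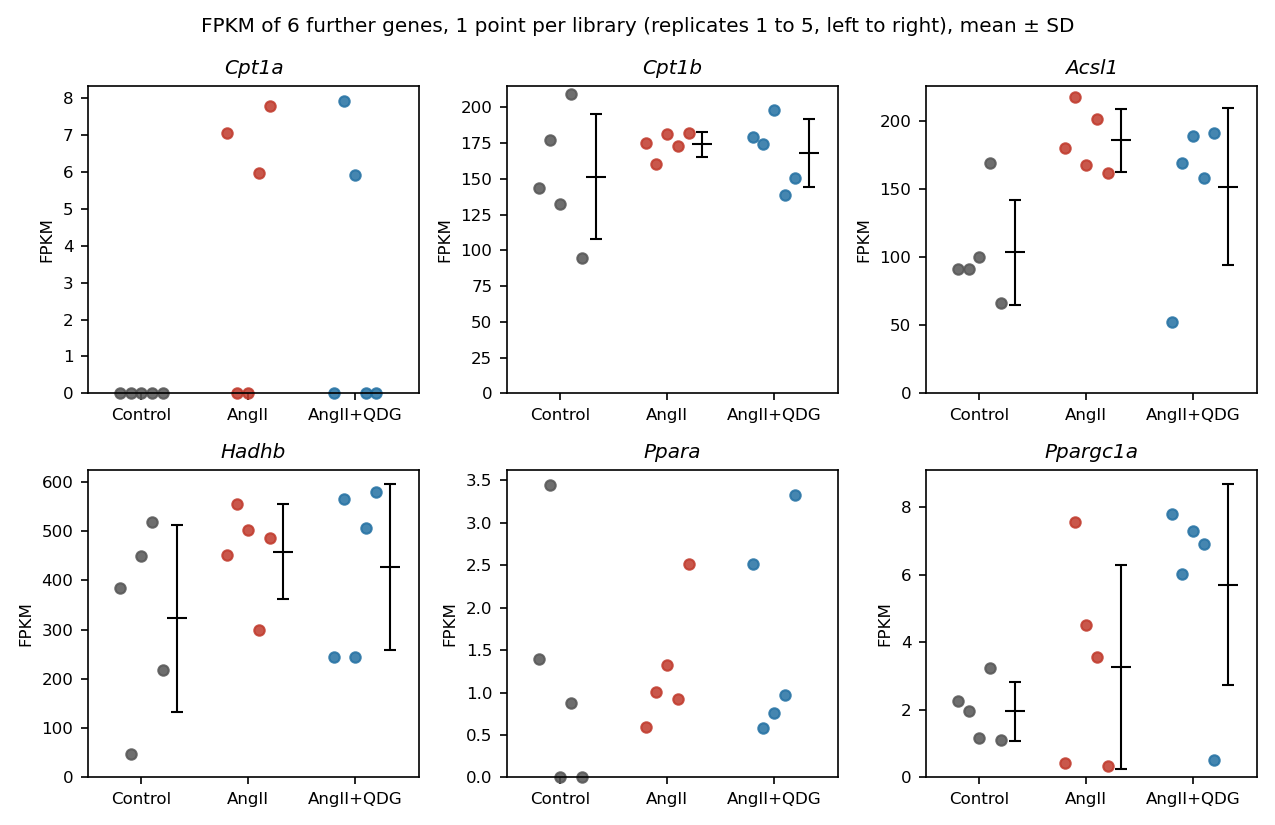
FPKM in every library (points, replicates 1 to 5 from left to right) of 6 further members by group, with mean and SD beside them except for Cpt1a and Ppara, which are listed at 0 in some libraries. Cpt1a is at 0 or between 5.91 and 7.93 FPKM, Hadhb is low in Control 2, and Acsl1 is lowest in AngII+QDG 1.

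The bases just upstream of the start of the 5 called members with a promoter entry that lies outside their own transcripts are shown because these genes carry the calls. They come from RefSeq promoter windows on GRCm38.p6, 5′ to 3′ on the gene's strand: Pdk4 from chr6:5496310-5496528, Acadl from chr1:66863310-66863559, Acadm from chr3:153944644-153944893 and Hadh from chr3:131272102-131272351, all minus strand, and Ech1 from chr7:28825088-28825216, plus strand. Capitals mark matches on either strand to the core hexamer of nuclear receptors such as Ppara (AGGTCA), the CCAAT box (CCAAT) and the GC box (GGGCGG).
Pdk4: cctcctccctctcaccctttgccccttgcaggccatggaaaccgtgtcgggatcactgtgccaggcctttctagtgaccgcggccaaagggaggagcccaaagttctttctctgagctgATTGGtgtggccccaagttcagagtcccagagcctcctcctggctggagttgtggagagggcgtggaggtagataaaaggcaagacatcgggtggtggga
Acadl: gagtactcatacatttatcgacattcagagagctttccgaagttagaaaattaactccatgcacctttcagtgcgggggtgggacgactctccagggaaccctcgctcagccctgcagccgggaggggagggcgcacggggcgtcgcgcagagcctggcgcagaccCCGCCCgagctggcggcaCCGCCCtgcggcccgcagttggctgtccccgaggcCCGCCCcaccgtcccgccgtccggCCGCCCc
Acadm: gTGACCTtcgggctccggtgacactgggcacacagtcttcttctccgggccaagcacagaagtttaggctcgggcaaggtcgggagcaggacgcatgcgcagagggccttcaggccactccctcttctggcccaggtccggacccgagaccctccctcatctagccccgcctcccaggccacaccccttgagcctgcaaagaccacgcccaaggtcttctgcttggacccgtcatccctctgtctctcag
Hadh: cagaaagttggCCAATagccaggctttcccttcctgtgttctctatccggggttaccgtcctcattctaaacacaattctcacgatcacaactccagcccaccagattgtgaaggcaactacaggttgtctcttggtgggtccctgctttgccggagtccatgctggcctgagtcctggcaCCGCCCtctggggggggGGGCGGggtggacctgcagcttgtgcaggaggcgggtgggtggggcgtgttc
Ech1: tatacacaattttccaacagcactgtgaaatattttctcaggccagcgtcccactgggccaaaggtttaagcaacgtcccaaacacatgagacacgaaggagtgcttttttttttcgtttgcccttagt
Acadl held 4 GC boxes, Hadh 2 GC boxes and 1 CCAAT box, Pdk4 1 CCAAT box, Acadm 1 hexamer, and the 129 bases of Ech1 none of these. Over windows of 250 bases upstream, the hexamer occurred in 6 of 32 windows of the 28 members matched and in 14.02% of 32851 windows of all genes. The CCAAT box occurred in 15 of 32 member windows and 33.8% of all, and the GC box in 19 of 32 and 32.7%. The direct repeat AGGTCANAGGTCA was in 0 of 32 member windows and in 0.0335% of all; a match is a run of letters and not a shown binding site.

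Transcripts were also tested one by one. The 31 members had 98 transcripts, of which 88 were tested in a limma fit of every transcript listed in all tables. In AngII against Control 1 of 88 was called higher, where 2.23% of all transcripts were, in AngII+QDG against Control 6 of 88, where 5.93% were, and in AngII+QDG against AngII 0 of 88, where 0.0105% were called. The members' shares were near those of all transcripts. Cd36-201, a coding transcript of 3016 nucleotides, had 1.55, 0.880, 2.66, 2.29 and 1.41 FPKM in Control 1 to 5. AngII libraries held 5.03, 6.40, 4.32, 4.37 and 4.13 FPKM of Cd36-201, and AngII+QDG libraries 5.24, 32.55, 6.47, 32.9 and 42.2. Every treated library was above every Control library, and AngII+QDG 2, 4 and 5 stood apart from the rest. Groups did not overlap for 11.1% of all genes in AngII and 14.5% in AngII+QDG against Control, and this share was not counted over transcripts. AngII+QDG tables list a partly different set of transcripts, so the file set and QDG cannot be told apart in this split. Cd36-201 rose in AngII+QDG against Control by 2.80 ± 0.48 (SE; limma adjusted p = 0.00762) and gave 1.11 ± 0.48 for AngII (adjusted p = 0.196) and 1.69 ± 0.48 for AngII+QDG against AngII (adjusted p = 0.777). It made up 0.66%, 1.80% and 8.32% of Cd36 in the 3 groups, while the main transcript Cd36-206 held 74.9%, 72.4% and 60.8%.

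Other called transcripts were Cd36-205, Acadm-201, Acadm-206, Hadhb-203 and Pdk4-201, all higher in AngII+QDG against Control, and Hadha-208, a retained-intron transcript, higher in AngII. Without Control 3 and Control 5 the call of Cd36-201 in AngII+QDG against Control was kept (2.90 ± 0.59, SE; limma adjusted p = 0.0456) and those of the other 6 were lost (adjusted p from 0.0594 for Hadhb-203 to 0.243 for Hadha-208). With the length balance as a covariate all 7 were lost, Cd36-201 at 3.32 ± 0.83 (limma adjusted p = 0.459), Cd36-205 at 0.33 ± 0.53 (adjusted p = 0.92), Pdk4-201 at 0.30 ± 0.39 (adjusted p = 0.897) and Hadha-208 at 0.56 ± 0.61 (adjusted p = 0.94). Because Control lay apart from both treated groups in this balance, its part and that of the group cannot be told apart. After quantile normalization the calls of Acadm-206 and Hadha-208 were lost (limma adjusted p = 0.0847 and 0.0604).

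The coding transcript Hadha-205 held 238, 227 and 255 FPKM on average in Control, AngII and AngII+QDG, with a difference of -0.04 ± 0.20 for AngII against Control. The retained-intron transcript Hadha-203 held 50.7, 110 and 112 FPKM, a difference of 1.48 ± 0.45 (SE) that did not pass (limma adjusted p = 0.083). Some coding transcripts were all or nothing. Acsl1-203 was listed at 0 in Control 1, 2, 3 and 5 and had 132 FPKM in Control 4, and Etfdh-202 was listed at 0 in Control 2 to 5 and had 138 FPKM in Control 1. Etfb-205 was listed at 0 in AngII+QDG 1 and 3, the 2 libraries of that group with the lowest Etfb sums, 407 and 462 FPKM.

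**Figure D5:**
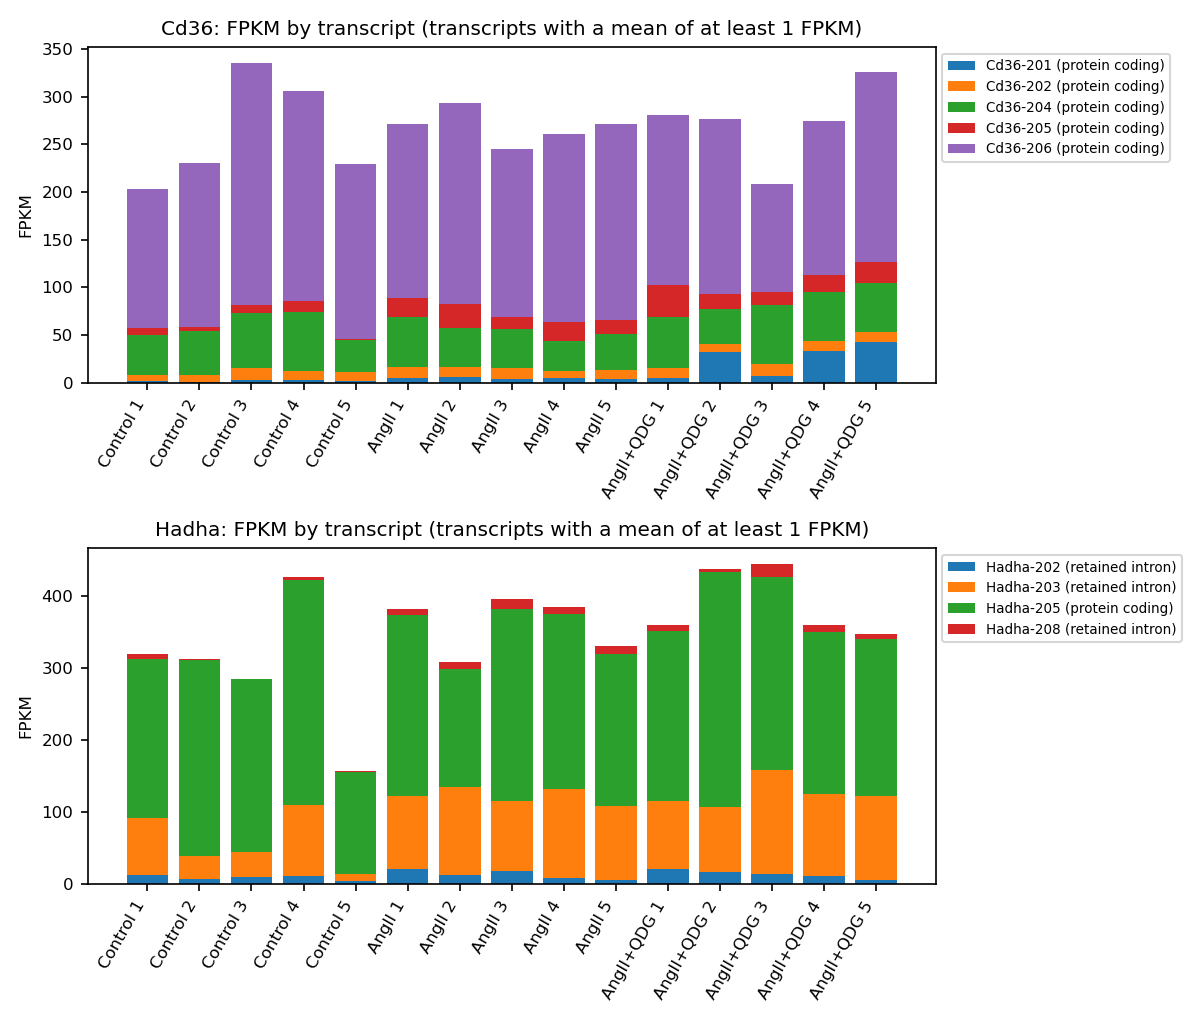
FPKM of each Cd36 and Hadha transcript with a mean of at least 1 FPKM, stacked by library; bar height is close to the gene's summed level. The share of Cd36-201 is largest in AngII+QDG 2, 4 and 5, and the retained-intron Hadha-203 is lowest in Control 5.

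Other genes of fatty acid metabolism were counted in 7 further lists of 92 tested genes. In AngII against Control 8 of 92 rose and 0 fell, in AngII+QDG against Control 14 rose and 2 fell, and in AngII+QDG against AngII 0 were called. These shares are near or below the 11.9% and 16.0% of all genes called higher and the 1.48% and 3.31% called lower. Nuclear receptors and their cofactors had 4 of 19 and 9 of 19 higher in the comparisons with Control. Esrrb, an estrogen-related receptor that acts on mitochondrial genes, rose from 2.87 ± 0.805 FPKM in Control to 6.71 ± 0.555 in AngII (SD, n = 5), by 1.02 ± 0.14 on the log2 scale (SE; limma adjusted p = 0.0038), and to 6.16 ± 0.767 in AngII+QDG (0.91 ± 0.14; adjusted p = 0.00229). The corepressor Ncor1 rose by 0.81 ± 0.23 and 0.99 ± 0.23 (adjusted p = 0.034 and 0.0101), and the coactivator Ncoa1 by 0.93 ± 0.23 and 1.05 ± 0.23 (adjusted p = 0.0254 and 0.00866).

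Of 10 genes of malonyl-CoA and of AMP-activated kinase, which lowers it, 2 rose in AngII and 3 in AngII+QDG against Control, with values below 0 for 3 and 4 of 10. Prkaa2, the catalytic subunit of muscle, rose by 0.77 ± 0.18 in AngII and 0.85 ± 0.18 in AngII+QDG against Control (SE; limma adjusted p = 0.0202 and 0.00676), and Prkaa1, the other catalytic subunit, by 0.49 ± 0.13 and 0.46 ± 0.13 (adjusted p = 0.027 and 0.0208). The regulatory subunit Prkag2 rose in AngII+QDG against Control by 0.55 ± 0.16 (SE; limma adjusted p = 0.03), and Prkag1 gave 0.38 ± 0.18 for AngII and -0.18 ± 0.18 for AngII+QDG (adjusted p = 0.159 and 0.507). Pdk1, a pyruvate dehydrogenase kinase like Pdk4, rose by 0.73 ± 0.15 and 0.94 ± 0.15 (adjusted p = 0.0141 and 0.00227). Of peroxisomal genes 1 of 13 rose in each: Phyh, which starts the breakdown of branched chains, by 0.27 ± 0.09 and 0.34 ± 0.09 (adjusted p = 0.0496 and 0.0166). Of triglyceride genes 2 of 13 were called lower in AngII+QDG against Control and 0 of 13 in AngII against Control: Pnpla2, the lipase that opens triglyceride stores, by 0.49 (SE 0.16; adjusted p = 0.0454), and Dgat1, which makes triglycerides, by 0.41 (SE 0.12; adjusted p = 0.0307). Of all genes 3.31% were called lower in AngII+QDG against Control and 1.48% in AngII against Control, and lists this small were not tested against those shares. In AngII against Control Pnpla2 gave -0.30 ± 0.16 and Dgat1 -0.10 ± 0.12, and AngII+QDG against AngII passed for neither (limma adjusted p = 0.998 and 0.965). Lists of other uptake genes and other mitochondrial oxidation genes had 0 of 13 and 0 of 11 called in each comparison.

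The calls differed in how far they rested on single libraries. Without Control 3 and Control 5, the libraries with the most short-transcript signal, Pdk4 (1.08 ± 0.31; limma adjusted p = 0.0453) and Acadm (0.38 ± 0.11; adjusted p = 0.0427) stayed called in AngII+QDG against Control and 0 of 31 in AngII against Control, where Pdk4 gave 0.90 ± 0.31 (adjusted p = 0.124), Acadl 0.28 ± 0.10 (0.152) and Ech1 -1.66 ± 0.61 (0.145). With the length balance as a covariate 0 of 31 were called in any comparison, beside 0 of 12267 genes in both comparisons with Control. Pdk4 then gave 0.18 ± 0.35 for AngII and 0.27 ± 0.37 for AngII+QDG. Control libraries lay apart from both treated groups in this balance, so its part and that of the group cannot be told apart. Centring each library on its median moved the median of all genes in AngII against Control from 0.20 to -0.06; then Pdk4 stayed called higher in both comparisons with Control, and Acadl, Acadm, Hadh and Etfdh were not called, while Ech1 and Eci1 were called lower in both and Acaa2, Etfb, Fabp3 and Mlycd in AngII+QDG against Control. After quantile normalization 7 members were called in AngII+QDG against Control, all higher, with Etfa and Hadha added to the 5. All genes called split 1457 higher to 181 lower in AngII against Control as deposited, 361 to 715 after centring, and 406 to 413 after quantile normalization. In AngII+QDG against Control they split 1968 to 406 as deposited, 791 to 1625 after centring, and 983 to 999 after quantile normalization.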

How the data were processed

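RNA of 15 mouse hearts was freed of ribosomal RNA before library preparation, per the labels' protocols. The authors deposited 1 table per library with 1 value per transcript, read here as FPKM because value times length, summed, is nearly equal in all libraries; the headers do not state the unit. The submitters' processing notes name GRCm38 and limma; the aligner, the quantification tool and its use of strand are not stated in the labels or headers. The Control and AngII libraries list 31685 transcripts each and the AngII+QDG libraries 31734, 29996 of them in common. Ensembl transcripts were named with GENCODE M21 and summed per gene. Another 8634 assembled transcripts carry no gene name, so fragments assigned to them are missing from the gene sums. Of the 31 members 6 overlap another annotated gene (0 a coding one).

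The members and gene lists were chosen with earlier results of these data known. A gene entered the test if 5 or more libraries reached 0.5 FPKM. The model was limma's (version 3.58.1, R 4.3.3), on log2(FPKM + 1), with a trend, robust variance, 12 residual degrees of freedom and Benjamini-Hochberg adjustment at 0.05; this scale understates changes of low genes. Library sizes were read from the FPKM steps: 97.1 to 97.3% of values lay within 0.1 of a whole number of steps, where chance gives 20%. Tested on simulated data of 12267 genes for AngII against Control, the fit recovered 67% of changes of 1 and 93% of changes of 2 log2 units. The simulation gave each gene 1 spread for all groups and no shift shared by a whole library. In these data Control varied more and the length balance shifted, so those rates may not hold here. Named are all 31 members, at most 4 genes per pathway list and 3 per cell type list by the smallest p, and Nppa and Ankrd1. Alternatives were another pseudocount, no filter, quantile and median scaling, 2 groups alone, a replicate block, shared or coding transcripts, leaving out libraries, the length balance as covariate, and limma voom on recovered fragments. Replicate numbers did not pair the samples.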

Additional observations from a re-analysis of the deposited data

Results flagged for a closer look

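Of 92 groups of 5 member values, 4 had a library further from its nearest neighbour than 0.71 of the group's range, where chance alone flags about 1 in 20 groups. Acsl1 had 52.3 FPKM in AngII+QDG 1 and 158 in the next lowest library of that group. Acads had 118 FPKM in AngII 1 and 75.8 in the next highest. Acot1 had 13.4 FPKM in Control 4 and 3.52 in the next highest. Ppargc1a had 0.526 FPKM in AngII+QDG 5 and 6.01 in the next lowest.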

How the results depend on the processing

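Genes called in AngII against Control numbered 1638 as reported, 819 after quantile normalization, 1076 after median scaling, 317 with 2 groups alone, 516 with the replicate block, 97 without Control 3 and Control 5, 0 with the balance covariate, and 316 to 2484 (without AngII 2 and without Control 4) when 1 library was left out. Members called there numbered 3 as reported, 0 with 2 groups alone, the replicate block, without Control 3 and Control 5 or the balance covariate, and 0 to 9 (without Control 5 and without Control 4) with 1 library left out. In AngII+QDG against AngII 1 gene was called with pseudocount 0.1, the balance covariate or voom, and 0 to 1 with a library left out; 0 members were called throughout. In AngII+QDG against Control 2374 genes became 1438 with 2 groups alone, 1199 without Control 3 and Control 5, 0 with the balance covariate, and 1452 to 3022 with a library left out. Members called there went from 5 to 1 with 2 groups alone, 2 without Control 3 and Control 5, 0 with the balance covariate, 3 with voom (2 higher, 1 lower), 7 with quantile normalization (all higher), 7 with median scaling (1 higher, 6 lower), and 2 to 10 with a library left out. With voom, Etfb was called lower in both comparisons with Control, and Acadl, Hadh and Etfdh were called in neither. The cause of these shifts was not tested.

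Of 26 alternatives, the rise of Pdk4 in AngII+QDG against Control was called in 25, that of Acadm in 23, Hadh in 14, Acadl in 13 and Etfdh in 4. In AngII against Control Pdk4 was called in 18, Ech1 in 16 and Acadl in 11. For each comparison the 26 include 5 fits without a library of the third group, which leave the log2 difference unchanged. With an AngII or Control library left out, Acadl stayed called in AngII against Control only without Control 4. No call of a member was reversed in any of the 26 alternatives, and 111 of 2158 uncalled values changed sign. Deviations of libraries with the same replicate number correlated by -0.096 to 0.087, so the numbers were not taken as pairs. The Cpt1a share stayed uncalled throughout, and its test as reported could not have passed against Control.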
